A study of Homo sapiens with 12 samples.

Results

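The MYC, MAX and MXD network is a group of transcription factors that bind DNA in pairs with MAX. Its 10 genes, MYC, MYCN, MYCL, MAX, MXD1, MXD3, MXD4, MXI1, MNT and MGA, were picked by symbol from the 60649 genes counted in each library. RNA came from SBC3, an established human small cell lung cancer line grown as spheroids, and each of 4 treatment groups has 3 libraries: control spheroids, teriflunomide, lurbinectedin, and both drugs in combination. Teriflunomide inhibits DHODH, an enzyme of pyrimidine synthesis, and lurbinectedin binds DNA and stalls transcription by RNA polymerase II. The study asks how teriflunomide acts together with chemotherapy. All groups are the same line, and neither dose nor exposure time of a drug is given in the sources used here. The labels do not say whether the 3 libraries of a group came from separate cultures, so the p-values below measure the spread between these libraries, which may be technical.

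MYC, MYCN and MYCL are the activating arm of the network: each pairs with MAX, binds the E-box sequence CACGTG and drives genes of ribosome production, metabolism and cell division. MXD1, MXD3, MXD4, MXI1 and MNT pair with MAX at the same sequence but recruit the SIN3 corepressor, and MGA pairs with MAX inside the repressive PRC1.6 complex. In small cell lung cancer, amplification of MYC, MYCL or MYCN is a recurrent and mutually exclusive event, and MAX and MGA are known as inactivated genes. What follows concerns RNA alone; no protein was measured.

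Total counts were 23206414 to 33222162 per library, and 16683 genes, among them 9 of the 10 network genes, passed the expression filter. Replicates correlated at 0.9946 to 0.9951 in control, but teriflunomide library 3 correlated with its partners at 0.9772 and 0.9788, against 0.9951 between those partners. That library had 22.6% of its counts on the mitochondrial genome, against 8.42% and 8.43% in the other teriflunomide libraries, and combination library 2 had 24.9%, against 14.6% and 13.1%. The mitochondrial share also moved with lurbinectedin, from 6.26% to 7.17% of counts in the control libraries to 13.8% to 17.0% in those with lurbinectedin alone. A fit with mitochondrial genes left out before scaling was among the alternatives. The lurbinectedin calls on MAX, MXD1, MXD3, MXD4, MNT and MGA held in it. That fit bears on scaling only, and any other part of the mitochondrial share in the lurbinectedin changes below was not tested. Values without teriflunomide library 3 or combination library 2 are given where they alter a result. Of the neuroendocrine markers, INSM1, CHGA and NCAM1 were under 1 CPM (reads scaled to a common library size) in all 12 libraries, while SYP and NEUROD1 stood at 16.8 and 4.03 CPM in control. SYP averaged 30.9 CPM with lurbinectedin and 34.1 CPM with the combination, whereas NEUROD1 averaged 1.62 and 2.51 CPM there. Epithelial KRT8 was present at 243 CPM in control, 421.9 CPM with lurbinectedin and 403.2 CPM with the combination, while EPCAM, CDH1 and KRT18 were near 0. COL1A1 and COL1A2 stood at 266 and 270.3 CPM in control, whereas the other fibroblast markers were under 1 CPM, as were the endothelial ones, in every library. Tuft-like markers summed to 0.956 to 1.003 CPM in control, and leukocyte markers to 0.134 to 0.335 CPM in control and 2.71 to 4.22 CPM with lurbinectedin. The latter rise lay in CD79A (mean 0.065 to 1.37 CPM) and CD14 (0.11 to 1.86 CPM). The other leukocyte markers, PTPRC, CD3E and LYZ, were under 1 CPM in every library and did not rise with lurbinectedin. Summed fibroblast markers were 518.9 to 548.9 CPM in control and 186.6 to 220.4 CPM with lurbinectedin; the part of these shifts in the results below was not tested. In bulk RNA, a change in the make-up of the cells and a change of RNA per cell cannot be told apart.

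The E-box that all pairs of the network bind was looked for in RefSeq promoter windows (GRCh38.p14, 250 bases before to 50 after a start), on both strands, which for this palindrome is the same search. RefSeq windows were at hand for 9 of the 10 genes, 14 windows in all; MYC had none. The letters CACGTG occurred in 2 of the 14, against 2548 of 35116 windows over all genes (7.26%). The stretches below belong to MXD3, MXD4 and MNT, the genes with the largest rises under lurbinectedin, and were cut to the bases before the start that lie in no annotated exon; capitals mark CACGTG. They were taken from chr5:177312758-177313002 for MXD3, chr4:2262110-2262359 for MXD4 and chr17:2401105-2401310 for MNT, all on the minus strand. MXD4 holds the E-box 238 bases and MNT 193 bases before the start, and the MXD3 stretch holds none. A match is a description of the letters and not evidence that a factor binds there.
MXD3: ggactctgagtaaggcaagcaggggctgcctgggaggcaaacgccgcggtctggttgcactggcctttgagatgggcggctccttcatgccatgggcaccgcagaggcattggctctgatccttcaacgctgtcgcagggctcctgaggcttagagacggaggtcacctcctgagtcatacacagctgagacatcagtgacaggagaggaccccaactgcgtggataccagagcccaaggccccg
MXD4: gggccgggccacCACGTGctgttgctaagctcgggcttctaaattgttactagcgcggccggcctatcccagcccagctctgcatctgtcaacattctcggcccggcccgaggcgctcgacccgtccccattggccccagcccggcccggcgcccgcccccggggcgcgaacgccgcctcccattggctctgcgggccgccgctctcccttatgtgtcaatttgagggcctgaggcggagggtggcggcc
MNT: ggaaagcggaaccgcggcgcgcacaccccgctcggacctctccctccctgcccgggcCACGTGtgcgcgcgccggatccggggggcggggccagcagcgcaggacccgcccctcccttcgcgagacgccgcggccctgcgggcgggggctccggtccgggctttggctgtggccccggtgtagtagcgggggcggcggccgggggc

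In every group MYC was by far the most abundant member. Per kilobase of exon (RPKM, which is CPM divided by the summed exon length given in the files), control libraries held MYC at 43.9 ± 1.27 (SD, n = 3), followed by MAX at 6.52, MGA at 6.50, MNT at 4.33, MXD1 at 3.98, MXI1 at 3.57, MXD4 at 2.90, MYCL at 1.85 and MXD3 at 0.631. MAX and MGA overlapped in control and could not be ordered, and all other neighbours in this order were separated. With lurbinectedin the order became MYC, MAX, MNT, MXD4, MXD1, MGA, MXI1, MYCL, MXD3, in which MXD4 and MXD1 overlapped, as did MGA and MXI1. MGA thus went from sharing the second place at 6.50 RPKM in control to the sixth at 2.95 RPKM with lurbinectedin. MYCN closed the list everywhere.

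**Figure D1:**
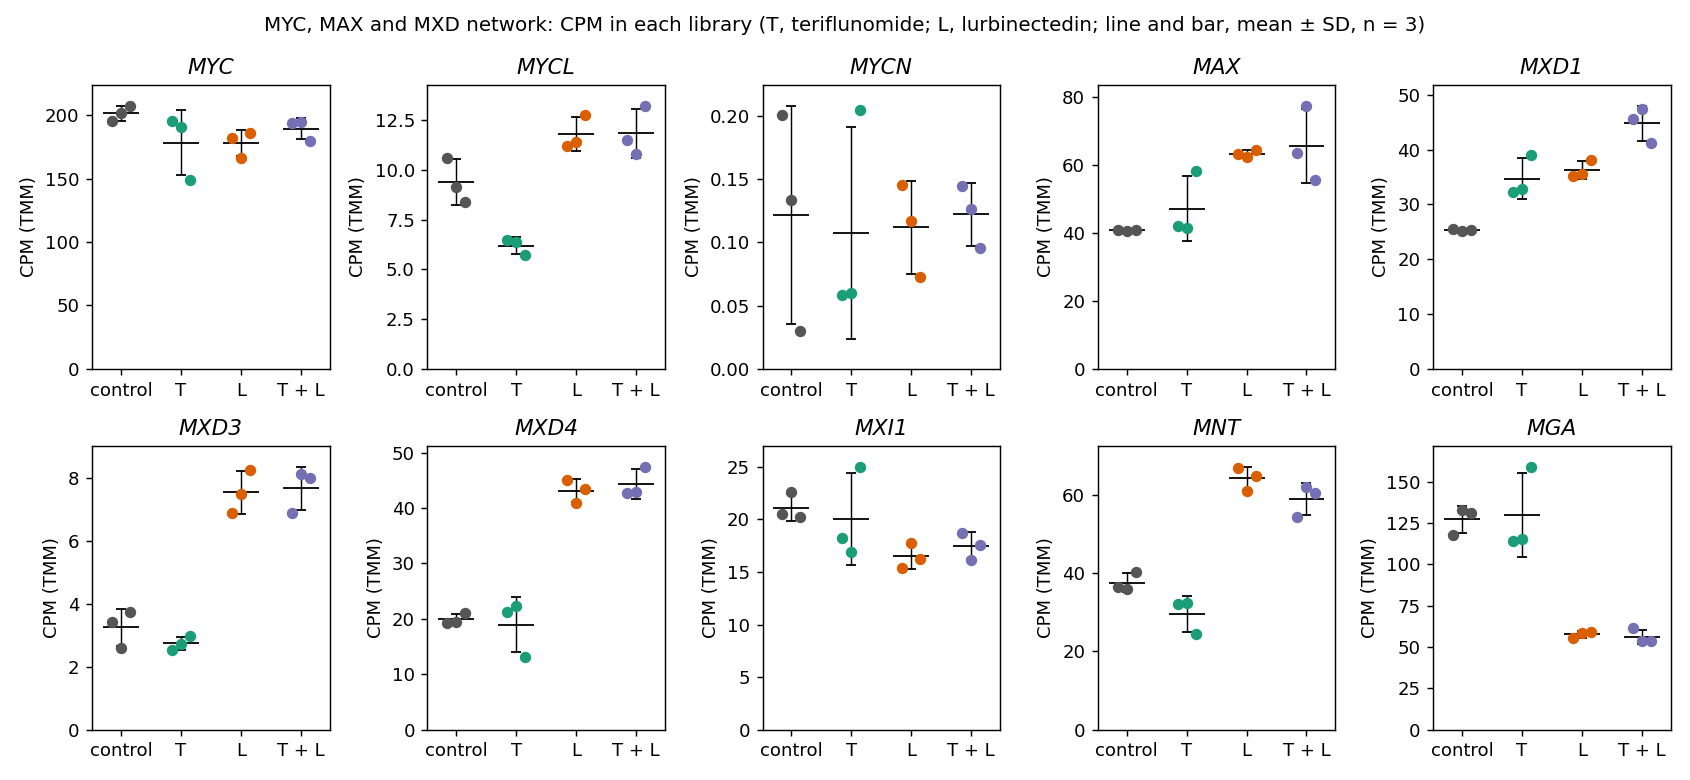
CPM (counts scaled to a common library size by TMM) of the 10 network genes on the y axis, in the 12 libraries by treatment on the x axis (T, teriflunomide; L, lurbinectedin). Points are libraries, lines and bars are mean ± SD (n = 3); MXD3, MXD4 and MNT stand higher and MGA lower in all 6 libraries exposed to lurbinectedin than in any control library.

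Calls below are Benjamini-Hochberg adjusted p-values under 0.05 from edgeR's quasi-likelihood test over all 16683 genes, fold changes are log2, and errors are standard errors unless marked SD. All 4 groups share the filter, the scaling and the estimate of spread. A library outside the groups compared acts on a comparison only through these. Lurbinectedin changed 8 of the 9 tested members: 6 rose (MYCL, MAX, MXD1, MXD3, MXD4, MNT) and 2 fell (MXI1, MGA). Lurbinectedin also changed 71.6% of all genes tested, 36.0% upward and 35.7% downward, so a high number of calls was the background. Against control, the combination raised the same 6 and lowered MGA, 7 calls against a background of 68.4% (34.1% higher and 34.4% lower). Teriflunomide alone changed 2, MYCL downward and MXD1 upward, against a background of 6.01% (3.88% higher and 2.13% lower). The median change over the 9 members was 0.52 with lurbinectedin, 0.65 with the combination and -0.08 with teriflunomide, beside 0.05, 0.04 and 0.03 over all genes. These comparisons share the control libraries, so their values are set side by side and do not support each other.

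Of the activating arm, MYC, the broadly expressed growth regulator, had no called change. Its RNA was 195.5, 201.4 and 207.1 CPM in control, 195.3, 190.5 and 149.2 under teriflunomide, 181.8, 166.3 and 185.8 under lurbinectedin, and 193.6, 194.4 and 179.9 under the combination. All 9 treated libraries lay below the lowest control library, most of them by little. The log2 change was -0.18 ± 0.11 with lurbinectedin (95% interval -0.40 to 0.05, adjusted p = 0.144), -0.18 ± 0.11 with teriflunomide (adjusted p = 0.318) and -0.09 ± 0.11 with the combination (adjusted p = 0.467), none past the threshold. Without teriflunomide library 3 the teriflunomide value of MYC was -0.06 (adjusted p = 0.675). The lurbinectedin value passed without teriflunomide library 3 (-0.19, adjusted p = 0.0170), with only the 2 groups fitted (-0.20, adjusted p = 0.00115) and with library size as the only scaling (-0.41, adjusted p = 0.0366), a scaling that also moved the median of all genes from 0.05 to -0.18.

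MYCL, the member of the MYC family first found amplified in small cell lung cancer, was called lower with teriflunomide and higher with lurbinectedin. MNT, MXD3 and MXD4 also had a negative value with teriflunomide and a rise with lurbinectedin, but their teriflunomide values were not called in edgeR. MYCL stood at 10.6, 9.16 and 8.36 CPM in control, 6.48, 6.38 and 5.72 under teriflunomide, 11.2, 11.4 and 12.8 under lurbinectedin, and 11.5, 10.8 and 13.2 under the combination. The teriflunomide libraries lay below, and the lurbinectedin and combination libraries above, every control library. MYCL fell by 0.60 ± 0.14 on the log2 scale with teriflunomide (adjusted p = 0.0233), and rose by 0.33 ± 0.13 with lurbinectedin (adjusted p = 0.0405) and 0.34 ± 0.13 with the combination (adjusted p = 0.0374). The combination was 0.93 ± 0.14 above teriflunomide alone (adjusted p = 2.97e-05) and 0.01 ± 0.13 from lurbinectedin alone (adjusted p = 0.981).

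The interaction term, which is the teriflunomide effect in the presence of lurbinectedin minus that in its absence, was 0.61 ± 0.19 for MYCL (unadjusted p = 0.0070, adjusted p = 0.277) and did not pass; it did without teriflunomide library 3 and combination library 2 (0.62, adjusted p = 0.0250). Each MYCL call against control rests on narrow margins. The teriflunomide call was lost on leaving out control library 1, 2 or 3 or teriflunomide library 2 (-0.67 to -0.50, largest adjusted p = 0.130). The lurbinectedin call was lost with control library 2 or 3, any lurbinectedin library, teriflunomide library 1 or 2 or combination library 1 left out, and the value fell to 0.10 (adjusted p = 0.687) with library size as the only scaling. The combination call was lost without control library 2 or 3, teriflunomide library 2, lurbinectedin library 1 or 2 or combination library 1 or 3, and was 0.18 (adjusted p = 0.449) under that scaling.

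MYCN, the neuronal member of the family, was at the limit of detection. Its counts were 6, 4 and 1 in control, 2, 2 and 6 under teriflunomide, 3, 3 and 2 under lurbinectedin, and 4, 3 and 3 under the combination. The group sums of 11, 10, 8 and 10 reads gave no filter pass and no test. A difference in MYCN was not detectable at this depth.

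MAX, the shared partner of the other members, rose with lurbinectedin. It was at 40.9, 40.5 and 41.0 CPM in control, 42.0, 41.6 and 58.2 under teriflunomide, 63.3, 62.3 and 64.6 under lurbinectedin, and 63.7, 77.4 and 55.8 under the combination. Control and lurbinectedin libraries were each within a few CPM and did not overlap, and the highest value of the teriflunomide group was in library 3 and that of the combination in library 2. MAX gained 0.64 ± 0.14 (log2) with lurbinectedin (adjusted p = 0.00124) and 0.69 ± 0.14 with the combination (adjusted p = 0.000775). The teriflunomide value of 0.21 ± 0.14 (adjusted p = 0.375) became 0.03 without library 3. MAX exons share 13.1% of their bases with FNTB on the opposite strand, which was lowered by 1.91 under lurbinectedin, and because the use of strand in counting is not given in the sources used here, reads of such pairs cannot be told apart.

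Among the repressive partners, MXD1, the founding MAD protein that is induced during differentiation, was the member raised by each drug. It measured 25.5, 25.1 and 25.3 CPM in control, 32.2, 32.9 and 39.0 under teriflunomide, 35.1, 35.6 and 38.1 under lurbinectedin, and 45.6, 47.5 and 41.3 under the combination. The control libraries were the lowest, the 2 single-drug groups overlapped each other, and the 3 combination libraries were above all others. The rise was 0.45 ± 0.11 under teriflunomide (adjusted p = 0.0284), 0.52 ± 0.11 under lurbinectedin (adjusted p = 0.000703) and 0.82 ± 0.11 under the combination (adjusted p = 1.32e-05).

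The combination exceeded teriflunomide alone in MXD1 by 0.37 ± 0.11 (adjusted p = 0.00759), a call lost with no filter (adjusted p = 0.0709) and with only the groups compared (adjusted p = 0.0628). It exceeded lurbinectedin alone by 0.30 ± 0.11 (95% interval 0.07 to 0.54, unadjusted p = 0.0147), which did not pass over all genes (adjusted p = 0.225) but did without teriflunomide library 3 (0.31, adjusted p = 0.0250). That library is in neither group of this comparison, and the value itself hardly moved. The interaction was -0.15 ± 0.15 (95% interval -0.48 to 0.18, adjusted p = 0.806). The teriflunomide call on MXD1 was lost on leaving out control library 1, 2 or 3 or lurbinectedin library 2 or 3 (0.36 to 0.51 over all such fits, largest adjusted p = 0.120) and with library size as the only scaling (0.36, adjusted p = 0.136). MXD1 shares 3.73% of its exon bases with SNRNP27 on the same strand, which averaged 24.0 CPM in control, 36.3 under teriflunomide, 34.7 under lurbinectedin and 44.7 under the combination, close to the course of MXD1. SNRNP27 was called higher with the combination (0.90, adjusted p = 0.00921), and its values of 0.60 with teriflunomide (adjusted p = 0.187) and 0.54 with lurbinectedin (adjusted p = 0.0899) missed the threshold; the part of shared reads was not tested.

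MXD3, an MXD factor linked to proliferating cells, and MXD4, one linked to differentiated cells, had the largest rises. MXD3 was at 3.42, 2.61 and 3.73 CPM in control, 2.55, 2.73 and 2.96 under teriflunomide, 6.88, 7.51 and 8.25 under lurbinectedin, and 6.88, 8.13 and 8.01 under the combination. MXD4 was at 19.2, 19.5 and 21.1 CPM in control, 21.3, 22.4 and 13.2 under teriflunomide, 45.1, 40.9 and 43.4 under lurbinectedin, and 42.7, 42.9 and 47.4 under the combination. For both genes the libraries with lurbinectedin were separate from those without it, and lurbinectedin and combination libraries overlapped. MXD3 rose by 1.21 ± 0.16 (2.32-fold, adjusted p = 1.06e-05) and MXD4 by 1.11 ± 0.16 (2.16-fold, adjusted p = 2.88e-05) with lurbinectedin.

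With the combination MXD3 was 1.23 ± 0.16 and MXD4 1.15 ± 0.16 above control, both called, and their differences from lurbinectedin alone were 0.02 (95% interval -0.31 to 0.35) and 0.04 (-0.30 to 0.38). With teriflunomide, MXD4 was -0.07 ± 0.16 from control and 0.13 without library 3, neither called. MXD3 exons share 18.0% of their bases with RAB24 on the same strand and 22.3% with PRELID1 on the other. Mean counts per library were 147.08 for MXD3, 71.25 for RAB24 and 3900.33 for PRELID1. With lurbinectedin RAB24 rose by 1.15 and PRELID1 by 0.42, and with the combination RAB24 was at 0.95 (adjusted p = 0.0102) and PRELID1 at 0.01 (adjusted p = 0.946); how reads of the 3 genes were divided is not given in the sources used here.

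MXI1, also called MXD2, differed from the MXD genes above, being lower with lurbinectedin where they were higher. Its values were 20.5, 22.6 and 20.3 CPM in control, 18.2, 16.9 and 25.01 under teriflunomide, 15.4, 17.8 and 16.3 under lurbinectedin, and 18.8, 16.1 and 17.6 under the combination. The 6 libraries with lurbinectedin were below every control library, and the teriflunomide libraries lay on both sides of control. MXI1 fell by 0.36 ± 0.15 with lurbinectedin (adjusted p = 0.0413), and its value of -0.27 ± 0.15 with the combination missed the threshold (adjusted p = 0.114). The lurbinectedin call was lost without control library 1, 2 or 3 or lurbinectedin library 1 or 3 (largest adjusted p = 0.125), and the combination value passed without teriflunomide library 3 (-0.28, adjusted p = 0.0167).

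MNT, the broadly expressed repressor that occupies MAX in most tissues, rose with lurbinectedin and was the most abundant repressive partner there. It was at 36.5, 36.1 and 40.4 CPM in control, 32.0, 32.4 and 24.4 under teriflunomide, 66.9, 61.1 and 65.0 under lurbinectedin, and 54.5, 62.0 and 60.5 under the combination. Teriflunomide libraries were all below, and the 6 libraries with lurbinectedin all above, the control range. The rise was 0.77 ± 0.12 with lurbinectedin (1.71-fold, adjusted p = 5.84e-05) and 0.65 ± 0.12 with the combination (adjusted p = 0.000302). With teriflunomide MNT was at -0.35 ± 0.12, which missed the threshold in edgeR (adjusted p = 0.104) and passed in DESeq2 (-0.36, adjusted p = 0.0472). Without teriflunomide library 3 it was -0.23 (adjusted p = 0.150).

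MGA, the largest protein of the network, which carries a T-box beside its MAX-binding region, fell the most. It stood at 118, 133 and 131.3 CPM in control, 114.5, 115.7 and 159.2 under teriflunomide, 55.5, 58.6 and 59.2 under lurbinectedin, and 61.3, 53.4 and 53.7 under the combination. Lurbinectedin and combination libraries overlapped each other and were all far below control, and teriflunomide libraries lay on both sides of it. MGA fell by 1.14 ± 0.13 with lurbinectedin (to 0.454 of control, adjusted p = 2.28e-06) and by 1.18 ± 0.13 with the combination (adjusted p = 1.95e-06). The teriflunomide value was 0.03 ± 0.13 (adjusted p = 0.917), and -0.15 without library 3.

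**Figure D2:**
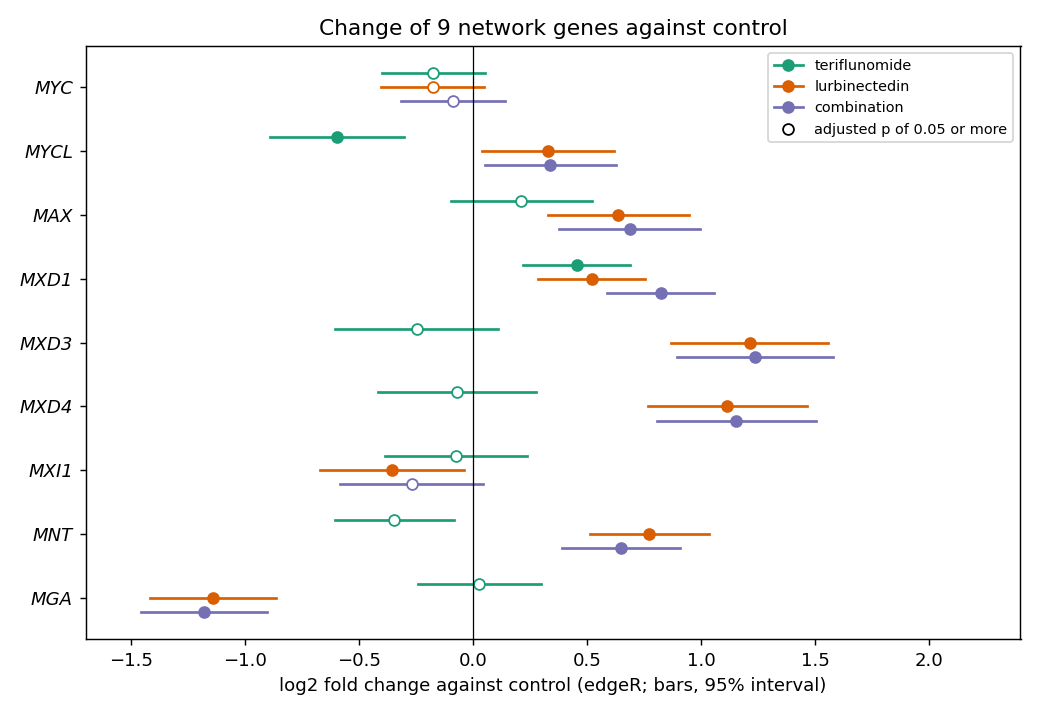
Log2 fold change against control on the x axis for the 9 tested network genes on the y axis, with 95% intervals, for teriflunomide, lurbinectedin and the combination; filled points passed an adjusted p of 0.05. MYCL lies at -0.60 with teriflunomide and 0.33 with lurbinectedin, and MXD1 moves from 0.45 and 0.52 with the single drugs to 0.82 with both.

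Teriflunomide library 3 was the highest or the lowest of the 6 control and teriflunomide libraries for 8 of the 9 tested genes, 4 in each direction. When teriflunomide was added to lurbinectedin, no member passed the threshold, and neither did any of the 16683 genes (0%), although 2599 had an unadjusted p under 0.05 and DESeq2 called 584. Without teriflunomide library 3, edgeR called 1 member, MXD1, and 2067 of all genes in this comparison. Against teriflunomide alone, the combination raised the 6 members that lurbinectedin raised and lowered MGA, with 70.9% of all genes called (35.2% higher and 35.8% lower). No interaction of the drugs was called for a member, with 0.258% of all genes called (0.0360% higher and 0.222% lower); 1726 genes were under an unadjusted p of 0.05 and DESeq2 called 256.

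Since the other members can all pair with MAX, the RNA of the 9 partner genes was also expressed as shares of their summed RPKM within each library, a quantity that library scaling cannot alter. Pairing with proteins other than MAX is not taken into account in these shares. The 3 MYC family genes held 67.7% ± 0.25 (SD, n = 3) of the partner RNA in control, 60.8% ± 0.91 with lurbinectedin and 61.3% ± 0.91 with the combination. MXD and MNT genes held 22.8% ± 0.23 in control, 34.9% ± 0.68 with lurbinectedin and 34.7% ± 1.09 with the combination. MGA went from 9.60% ± 0.44 in control to 4.36% ± 0.25 and 4.02% ± 0.31. For all 3 classes the libraries with and without lurbinectedin were apart, with 1 exception: teriflunomide library 3 had 58.6% of MYC family RNA, below both lurbinectedin groups.

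The ratio of MYC family RNA to that of the MXD and MNT genes was 2.963, 3.001 and 2.956 in control, 2.85, 2.76 and 2.15 under teriflunomide, 1.77, 1.68 and 1.79 under lurbinectedin, and 1.85, 1.77 and 1.68 under the combination. All treated libraries were below control, and those with lurbinectedin were lowest. Summed partner RNA itself was 67.7 ± 1.71 RPKM in control and 67.8 ± 2.89 RPKM with lurbinectedin, so under TMM scaling the classes shifted within a similar total. Unlike the shares, this total depends on the scaling, and it is given for TMM only. Divided by MAX, the partner sum was 10.4 ± 0.26 in control and 6.69 with lurbinectedin. Without division by exon length the MYC family share was 47.3% in control and 45.7% with lurbinectedin, a smaller step, since MGA with its long exons then holds 28.6% and 13.9%, while the MXD and MNT share still went from 24.1% to 40.4%. No test was made of these shares.

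**Figure D3:**
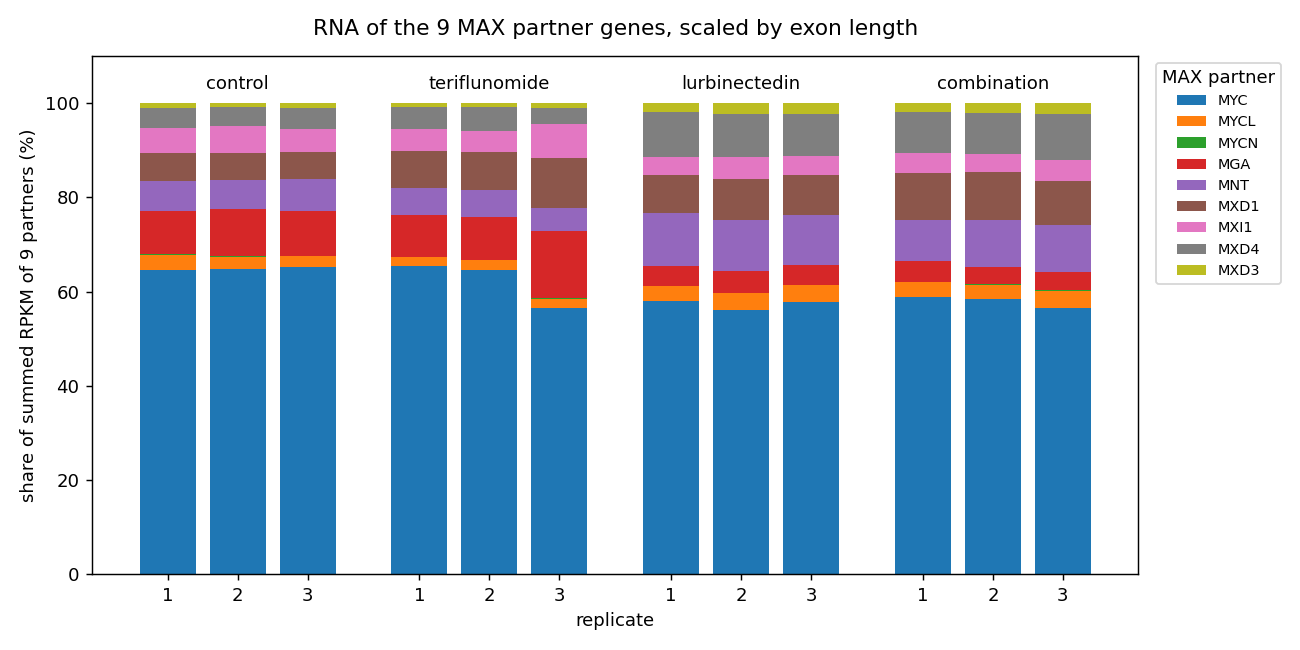
Share of the summed RPKM of the 9 MAX partner genes (y axis, percent) in each library (x axis, replicate within treatment), stacked by gene. MYC takes 64.8% on average in control and 57.3% with lurbinectedin, and the MXD and MNT bars widen while the MGA bar narrows.

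Fold changes with lurbinectedin went with the genomic span of genes. In 5 equal bins of nuclear genes by span, the median log2 change with lurbinectedin was 0.69, 0.62, 0.28, -0.36 and -1.86 from the shortest to the longest. MXD4 (14.7 kb) and MXD3 (11.3 kb) rose by more than the median of 0.62 of their bin, and MNT (17.0 kb) by more than the 0.28 of its own. MAX (96.5 kb) and MXD1 (45.3 kb) rose in bins with medians of -1.86 and -0.36. MGA (152 kb) fell by less than the median of its bin, MXI1 (79.8 kb) stood at that of its bin, and MYC (7.52 kb) and MYCL (6.83 kb) were below the 0.62 of theirs. With teriflunomide the bin medians ran from -0.09 in the shortest genes to 0.15 in the longest. The part of span in the changes of the network genes, or of the listed genes named below, was not tested.

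**Figure D4:**
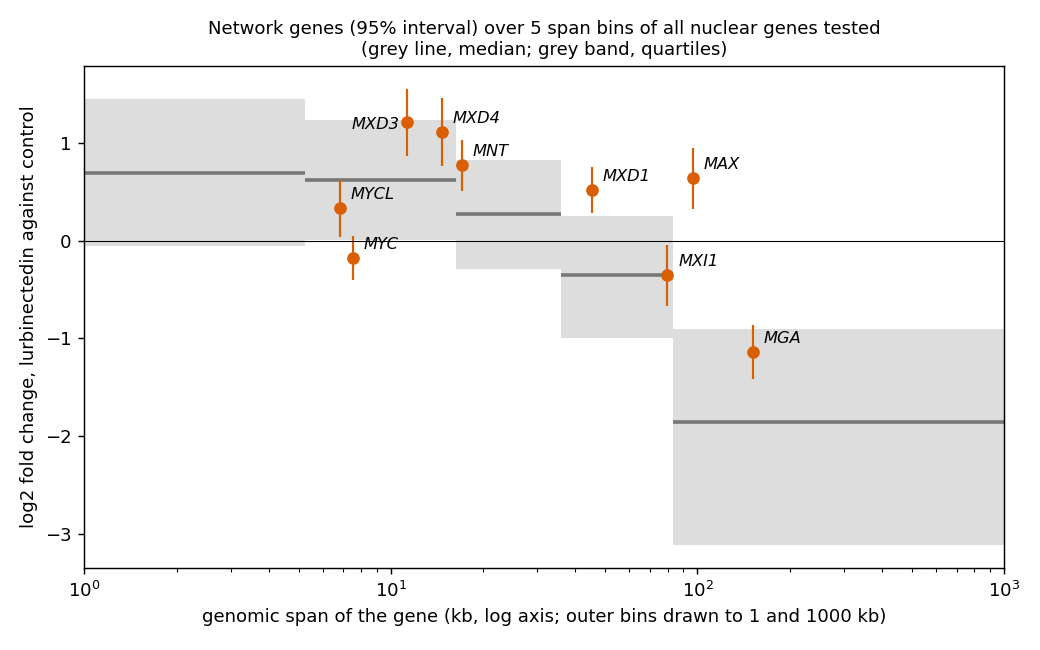
Log2 fold change with lurbinectedin against control (y axis) by genomic span (x axis, kb, log scale) for the 9 tested network genes (points, 95% interval), over the median (grey line) and quartiles (grey band) of all nuclear genes in 5 span bins. MAX at 0.64 and MXD1 at 0.52 lie above the band of genes of like span, and MYC at -0.18 below it.

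The genes themselves lie, in the hg38 coordinates of the files, at chr1:39895426-39902256 (MYCL, minus strand), chr14:65006174-65102695 (MAX, minus), chr2:69897688-69942945 (MXD1, plus), chr5:177301461-177312757 (MXD3, minus), chr4:2247432-2262109 (MXD4, minus), chr10:110207605-110287365 (MXI1, plus), chr17:2384073-2401104 (MNT, minus), chr15:41621134-41773081 (MGA, plus) and chr2:15940550-15947007 (MYCN, plus). MYC is on chromosome 8. The values are sums over all annotated exons of a gene, so isoforms of MAX, MXI1 and MGA that differ in their ends were not separated.

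The parallel branch of the network pairs MLX with the glucose-sensing factors MLXIP (MondoA) and MLXIPL (ChREBP), which drive TXNIP and ARRDC4. Of these 5 genes, 4 rose with lurbinectedin, 3 with the combination and 1 with teriflunomide, and none fell. Of all genes, 36.0%, 34.1% and 3.88% were called higher in those comparisons. TXNIP went from 36.9 ± 1.83 CPM (SD, n = 3) in control to 91.7 ± 7.70 with lurbinectedin (log2 1.31 ± 0.12, adjusted p = 4.20e-07), and ARRDC4 from 21.4 ± 1.44 to 65.8 ± 2.95 (1.62 ± 0.16, adjusted p = 6.77e-07). MLX rose by 0.40 with lurbinectedin (adjusted p = 0.0269), a call that was lost without control library 1, 2 or 3 or lurbinectedin library 1 or 3, with no filter (adjusted p = 0.0704) and with library size as the only scaling (0.17, adjusted p = 0.510). MLXIPL was called higher with each treatment but stayed under 1 CPM on average in every group, at 0.160 CPM in control and 0.714 CPM with lurbinectedin, and its teriflunomide call was lost in 8 of 12 fits that leave out 1 library. MLXIP stood at 78.6 CPM in control and 87.5 CPM with lurbinectedin (0.15, adjusted p = 0.226).

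Of the noncoding RNAs beside MYC family genes, PVT1, the neighbour of MYC, rose from 21.3 ± 1.40 to 28.7 ± 0.66 CPM (SD, n = 3) with lurbinectedin (0.43, adjusted p = 0.00389) and stood at 22.7 CPM with the combination (0.09, adjusted p = 0.509). With library size as the only scaling the lurbinectedin call on PVT1 was lost (adjusted p = 0.266). CASC11 and MYCL-AS1 averaged under 1 CPM in all groups, and both overlap their neighbour on the opposite strand. CASC11 fell with lurbinectedin (from 0.714 to 0.354 CPM, adjusted p = 0.0173), a call lost without control library 3 or lurbinectedin library 2 or 3. MYCL-AS1 was called higher with lurbinectedin, from 0.011 CPM in control to 0.419. MYCNOS was at or near 0 and was not tested.

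MYC works through coactivators that modify chromatin and release paused polymerase. Of 16 coactivator genes, 9 rose and 4 fell with lurbinectedin, with a median of 0.45, and 8 rose and 4 fell with the combination, beside 71.6% and 68.4% of all genes called in these comparisons. The scaffold TRRAP went from 243.9 ± 17.7 CPM (SD, n = 3) in control to 62.2 ± 2.83 with lurbinectedin (-1.97 ± 0.12, adjusted p = 4.40e-09), and the remodeller EP400 from 285.9 ± 20.8 to 79.4 ± 7.20 (-1.85 ± 0.13, adjusted p = 1.67e-08). CCNT1, the cyclin of the elongation kinase P-TEFb, rose from 167.2 ± 2.17 to 472.4 ± 15.9 CPM (1.498 ± 0.13, adjusted p = 1.14e-07). WDR5, which anchors MYC to chromatin, rose by 0.87 with lurbinectedin (adjusted p = 1.02e-05) and fell by 0.42 with teriflunomide (adjusted p = 0.0462). The latter was the single call among the 16 with teriflunomide, and it was lost on leaving out any of 9 of the 12 libraries, all but teriflunomide library 1 or 3 and combination library 3. RUVBL2 was at -0.66 ± 0.19 with teriflunomide, just short of the threshold (adjusted p = 0.0535), and passed without teriflunomide library 1 or 3.

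MYC protein is short-lived, and 19 genes of its degradation or stabilisation were listed. With lurbinectedin 5 rose and 7 fell (median -0.14), with the combination 5 rose and 10 fell, and with teriflunomide none was called; with library size as the only scaling 4 rose and 11 fell with lurbinectedin and 1 fell with teriflunomide. Over all genes 36.0% rose and 35.7% fell with lurbinectedin, so the lurbinectedin counts of this list are near the background under TMM scaling. With library size as the only scaling, 39.2% of the lurbinectedin calls over all genes were higher, and 265 genes were called with teriflunomide. With the combination 34.1% of all genes rose and 34.4% fell. BTRC, a ubiquitin ligase subunit, went from 55.3 ± 1.204 CPM (SD, n = 3) in control to 2.701 ± 0.91 with lurbinectedin and 6.07 ± 2.21 with the combination (-4.35 ± 0.26 and -3.19 ± 0.24). GSK3B, a kinase that marks MYC for destruction, went from 91.0 ± 3.66 to 11.6 ± 2.22 CPM with lurbinectedin (-2.96 ± 0.18), while TRIM32, a ubiquitin ligase, rose from 25.8 ± 0.46 to 76.7 ± 4.496 (1.57 ± 0.12). With teriflunomide the smallest adjusted p-values in this list were 0.0535 for PLK1 (-0.40) and 0.0542 for AXIN1 (-0.53), which both passed without teriflunomide library 1; AXIN1 fell by 0.60 with lurbinectedin.

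The MXD proteins and MNT repress through SIN3 and its histone deacetylases. Of 16 genes of this complex, 6 rose and 7 fell with lurbinectedin (median -0.21), 6 rose and 6 fell with the combination, and none was called with teriflunomide. These counts are near the background of all genes (36.0% higher and 35.7% lower with lurbinectedin, 34.1% and 34.4% with the combination). The scaffold SIN3A fell from 133 ± 1.66 CPM (SD, n = 3) in control to 59.9 ± 3.90 with lurbinectedin (-1.15 ± 0.14, adjusted p = 5.03e-06). SAP18 rose from 116.1 ± 2.47 to 278.4 ± 16.6 CPM (1.26 ± 0.11, adjusted p = 1.61e-07), BRMS1L rose by 0.95, and ARID4B and SAP130 fell by 1.43 and 0.91. SIN3A RNA thus fell where that of MXD3, MXD4 and MNT rose. SAP18 and BRMS1L of the same complex rose, however, and the repressive partner MXI1 fell. The complex as a whole had no common direction.

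PRC1.6, the polycomb complex that MGA scaffolds with MAX, had 3 of 13 listed genes higher and 5 lower with lurbinectedin (median -0.10), and 3 higher and 5 lower with the combination, no more than the share of all genes called (71.6% and 68.4%). TFDP2, a dimer partner of E2F6, went from 49.3 ± 1.69 CPM (SD, n = 3) in control to 3.17 ± 0.46 with lurbinectedin and 6.23 ± 2.22 with the combination (-3.95 ± 0.22 and -2.98 ± 0.21). RNF2, a catalytic subunit, fell by 1.31 ± 0.16 with lurbinectedin. CBX3 was at -0.32 ± 0.09 with teriflunomide (adjusted p = 0.0509, under the threshold without teriflunomide library 3 or combination library 2 or 3), and WDR5, listed here too, was the only gene of the 13 called with that drug.

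Textbook targets that MYC induces mostly rose with lurbinectedin and, where called, fell with teriflunomide. With lurbinectedin 14 of 23 tested rose and 2 fell (median 0.52); with teriflunomide none rose and 6 fell (median -0.33); with the combination 8 rose and 2 fell (median 0.17). Over all genes the shares called higher and lower were 36.0% and 35.7% with lurbinectedin, 3.88% and 2.13% with teriflunomide, and 34.1% and 34.4% with the combination. In the span bins up to 16.26 kb the medians were 0.69 and 0.62 with lurbinectedin, and -0.09 and -0.06 with teriflunomide. The spans of the listed targets were not set against these bins, and the part of span was not tested. NOP56, a ribosome assembly factor, went from 224.1 ± 3.95 CPM (SD, n = 3) in control to 178.2 ± 9.56 under teriflunomide, 644.2 ± 33.0 under lurbinectedin and 550 ± 66.7 under the combination (log2 -0.33, 1.52 and 1.30, of which the teriflunomide value missed the threshold at adjusted p = 0.0604). DKC1, of the telomerase and pseudouridine machinery, fell by 0.39 ± 0.09 with teriflunomide (adjusted p = 0.0229, lost without control library 1, 2 or 3 or teriflunomide library 2) and rose by 0.47 ± 0.09 with lurbinectedin (adjusted p = 0.000278), which became 0.24 (adjusted p = 0.0581) with library size as the only scaling. PES1, also of ribosome assembly, rose by 1.35 and ODC1, the entry enzyme of polyamine synthesis, by 1.03 with lurbinectedin.

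LDHA, which makes lactate, was lower in each treatment, from 1482 ± 63.0 CPM (SD, n = 3) to 906.7 ± 32.2 with teriflunomide, 882 ± 36.0 with lurbinectedin and 721.9 ± 66.1 with both drugs (-0.71, -0.75 and -1.04). With library size as the only scaling the counts of induced targets were 9 higher and 4 lower with lurbinectedin and 2 lower with teriflunomide. Over all genes 39.2% of the lurbinectedin calls were higher under that scaling, against 50.2% with TMM, and 265 genes were called with teriflunomide. Without teriflunomide library 3 the counts of induced targets were 17 higher and 2 lower with lurbinectedin and 9 lower with teriflunomide. Over all genes 1555 were called with teriflunomide in that fit, and 11118 to 13175 with lurbinectedin over the fits that leave out 1 library. Adding teriflunomide to lurbinectedin called none of the 23 (median -0.28, all genes 0.03), but 11 were called lower without teriflunomide library 3 and 19 without that library and combination library 2. Over all genes and in either direction, 0 were called in the main fit, and 2067 and 3640 in those fits in that order.

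Of 7 textbook genes that MYC represses, 5 rose with lurbinectedin and with the combination, 3 rose with teriflunomide, and none fell, beside 36.0%, 34.1% and 3.88% of all genes called higher in those comparisons. The cell cycle inhibitor CDKN1A went from 22.8 ± 1.61 CPM (SD, n = 3) in control to 43.7 ± 14.7 with teriflunomide, 619.6 ± 42.2 with lurbinectedin and 573.9 ± 21.4 with both (0.94, 4.76 and 4.65). CDKN2B, another such inhibitor, went from 1.18 ± 0.07 to 2.75 ± 0.52, 37.1 ± 1.10 and 39.5 ± 14.7 CPM (1.21, 4.97 and 5.06). GADD45A, a stress gene, went from 8.42 ± 1.09 to 21.5 ± 4.18, 280.4 ± 19.3 and 265.4 ± 76.5 CPM (1.35, 5.06 and 4.98). CDKN1A and GADD45A are also targets of p53, and the list does not separate the inputs. With teriflunomide, the CDKN1A call was lost without control library 1, 2 or 3, and the CDKN2B call without any of these or teriflunomide library 3. The CDKN1A call was also lost with library size as the only scaling (0.90, adjusted p = 0.0958) and with only the groups compared (0.91, adjusted p = 0.11).

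**Figure D5:**
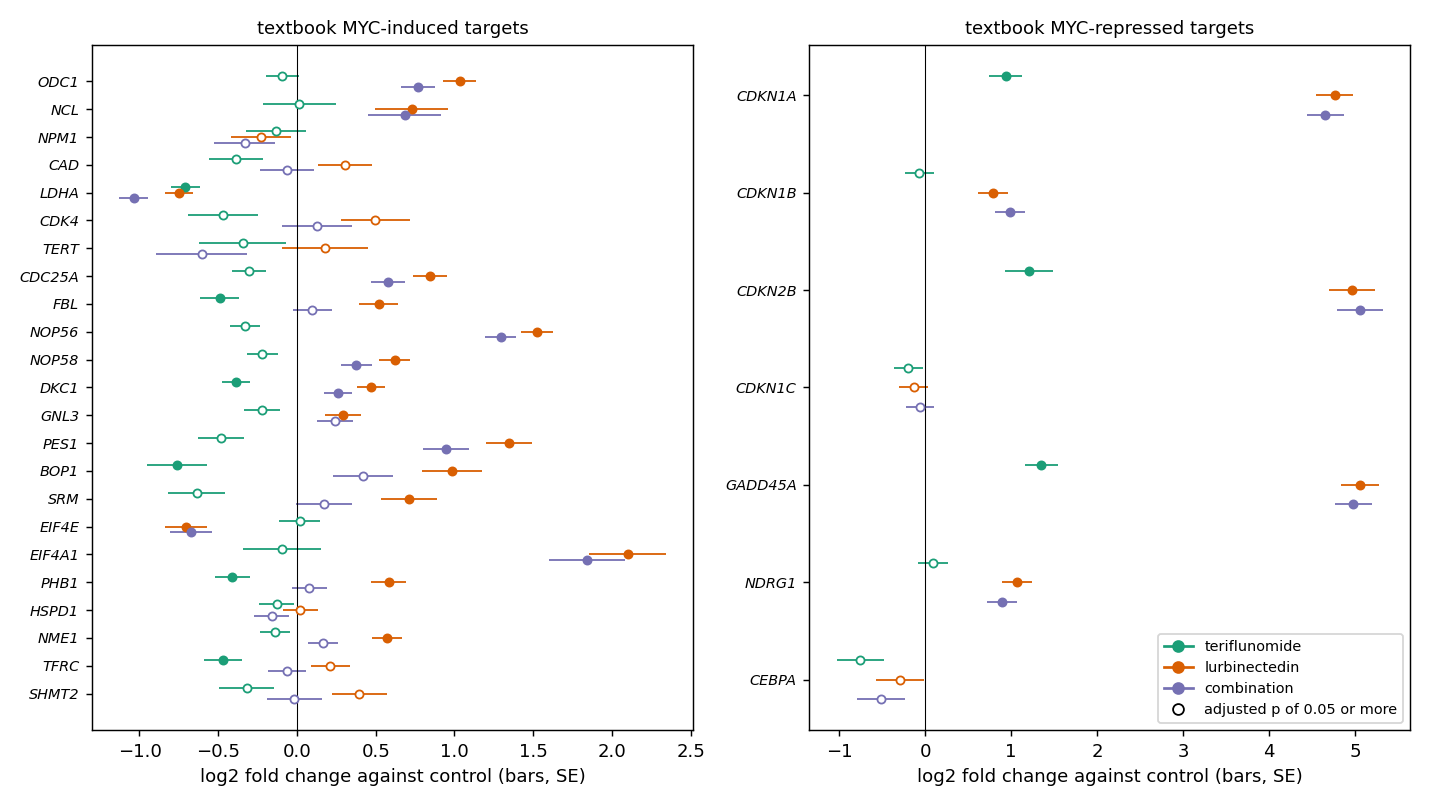
Log2 fold change against control (x axis, bars are SE) of the 23 tested MYC-induced and 7 MYC-repressed textbook targets (y axis), for each treatment; filled points passed an adjusted p of 0.05. Most induced targets lie right of 0 with lurbinectedin and left of 0 with teriflunomide, and CDKN1A, CDKN2B and GADD45A lie between 4.65 and 5.06 with lurbinectedin or the combination.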

How the data were processed

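RNA purified with the RNeasy Plus Mini kit was made into libraries with the KAPA mRNA HyperPrep kit, per the labels' protocols. The authors deposited raw read counts per gene, 1 table per library; fastp 0.23.2, STAR 2.7.9, Subread, featureCounts and build hg38 are named in the submitters' processing notes. The annotation release, the use of strand and the handling of multi-mapping reads are not given in the sources used here, and featureCounts drops or shares reads of overlapping genes according to those settings.

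Counts were fitted with edgeR 4.0.16 in R 4.3.3 (TMM scaling, filterByExpr on the 4 groups, robust quasi-likelihood fit, 1 mean per group over 12 libraries, 16683 genes, biological coefficient of variation 14.5%). The call threshold in each of 6 contrasts was an adjusted p of 0.05 (Benjamini-Hochberg). SE is the log2 fold change over the root of the F statistic. CPM uses the TMM library size and RPKM divides it by exon length. The code was tested on simulated data. Symbols came from a gene name table that matched 60463 of 60649 identifiers. All 10 members were named whatever their values, as were lists of 5 or fewer genes. From each other of 8 lists, up to 3 members with the smallest adjusted p with lurbinectedin and 2 with teriflunomide were named. The members and lists were chosen with earlier results of these data known. Alternatives were other scalings, no filter, a replicate block, only the groups compared, DESeq2 1.42.0 and leaving out each library; leaving out teriflunomide library 3 with combination library 2, and leaving out mitochondrial genes, were added after seeing the data. The labels give no batch. The values of 1 marker gene are not reported here.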

Additional observations from a re-analysis of the deposited data

Results flagged for a closer look

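GADD45A, a stress gene in the MYC-repressed list, was singled out because the effect of teriflunomide differed with and without lurbinectedin in a test of that difference. Teriflunomide raised it by 1.35 ± 0.19 (log2, SE) over control, from 8.42 ± 1.09 to 21.5 ± 4.18 CPM (SD, n = 3). Added to lurbinectedin, the change was -0.08 ± 0.18, from 280.4 ± 19.3 to 265.4 ± 76.5 CPM. The interaction was -1.43 ± 0.26 (edgeR adjusted p = 0.0444). Over the fits that leave out 1 library it was -1.67 to -1.25 and missed the threshold in 9 of 12, with a largest adjusted p of 0.170, and the replicate block also ended the call (-1.46, adjusted p = 0.110); the 3 fits that kept the call were those in which teriflunomide library 1 or 3 or combination library 2 was the one left out.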

How the results depend on the processing

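Lurbinectedin calls on MAX, MXD1, MXD3, MXD4, MNT and MGA kept direction and threshold in every alternative run, and the network counts against control with lurbinectedin and the combination were 6 to 9 and 6 to 8 over fits leaving out 1 library. The teriflunomide contrast was the weak point. Its network count was 0 with library size as the only scaling, with the replicate block and with only the groups compared, 1 with no filter, and 0 to 2 over fits leaving out 1 library. All genes called with teriflunomide were 265, 415, 283 and 1800 under those same 4 settings, 1890 with DESeq2, 2757 without teriflunomide library 3 and combination library 2, and 216 to 1555 with 1 library left out. For the combination against lurbinectedin they were 612 with no filter, 94 with only the groups compared, 584 with DESeq2, 3640 without the 2 libraries, and 0 to 2067 with 1 left out; the network count was 1 without the 2 libraries and 0 to 1 with 1 left out. For the interaction they were 6 with library size only, 195 with no filter, 8 with the replicate block, 256 with DESeq2, 1839 without the 2 libraries and 2 to 616 with 1 left out, and the network count was 1 without the 2 libraries. Libraries outside a comparison act on it only through the shared filter, scaling and spread. The cause of these moves was not tested further.

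Same-numbered libraries showed no common deviation (18 pairs, correlations -0.40 to 0.14), and pairs with different numbers ranged from -0.21 to 0.36. With 3 libraries per group, this check cannot exclude a pairing by number. The replicate block also ended the MYCL (0.33, adjusted p = 0.0659) and MXI1 (-0.36, adjusted p = 0.0614) calls with lurbinectedin, the MYCL call with the combination (0.34, adjusted p = 0.0634) and the teriflunomide calls on MYCL (adjusted p = 0.0607), MXD1 (adjusted p = 0.0739), WDR5 (adjusted p = 0.0892), MLXIPL (adjusted p = 0.0684) and DKC1 (adjusted p = 0.0601), and the GADD45A interaction call (-1.46, adjusted p = 0.110). For the combination against teriflunomide, the MAX call was lost with only the groups compared (0.48, adjusted p = 0.0541).

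With library size only, 39.2% of lurbinectedin calls were higher, against 50.2% with TMM, and 41% against 49.8% with the combination. Uncalled values that changed sign under it were MGA (-0.075 with teriflunomide, 0.028 for the combination against lurbinectedin, 0.10 for the interaction), MYC (-0.021, combination against teriflunomide), TXNIP (-0.0051), PVT1 (-0.027), TRIM32 (-0.025) and SIN3A (-0.11) with teriflunomide, and MLXIP (-0.080) with lurbinectedin. With teriflunomide, MGA was -0.0043 with no filter and -0.0019 with only the groups compared, and SIN3A -0.0087 with DESeq2 or its size factors, -0.028 with no filter, -0.016 with the block and -0.026 with only the groups compared.

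Without teriflunomide library 3 and combination library 2, sign changes were, with teriflunomide, MXD4 0.13, MGA -0.15, SIN3A -0.22 (adjusted p = 0.0363), TFDP2 -0.0014 and RNF2 -5e-04; for the combination against lurbinectedin, MAX -0.084 and MXD3 -0.019; against teriflunomide, MYC -0.054 and MXI1 0.044; and for the interaction, MXD4 -0.063 and MGA 0.14. Ranges that crossed 0 over the fits leaving out 1 library, or these 2 together, were, with teriflunomide, MXD4 -0.20 to 0.13, MXI1 -0.27 to 0.035, MGA -0.15 to 0.11, TXNIP -0.0065 to 0.16, PVT1 -0.0066 to 0.14, MYCL-AS1 -1.82 to 1.76, TRIM32 -0.033 to 0.15, SIN3A -0.22 to 0.11, TFDP2 -0.0023 to 0.18 and RNF2 -0.0016 to 0.21. For the combination against lurbinectedin they were MYCL -0.080 to 0.073, MAX -0.084 to 0.15, MXD3 -0.029 to 0.10 and MXD4 -0.012 to 0.082. Against teriflunomide MYC ranged from -0.054 to 0.15 and MXI1 from -0.31 to 0.044, and for the interaction MAX from -0.28 to 0.023, MXD4 from -0.082 to 0.24 and MGA from -0.15 to 0.14.

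Without division by length, shares in control, teriflunomide, lurbinectedin and combination were 47.3%, 43.9%, 45.7% and 46.7% for the MYC family, 28.6%, 30.9%, 13.9% and 13.04% for MGA, and 24.1%, 40.4% and 40.2% for the MXD and MNT genes in control, lurbinectedin and combination. Depth limits MYCN, MYCNOS, MYCL-AS1, CASC11 and MLXIPL.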

Other observations

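The genes whose course over the 12 libraries was nearest to that of the 3 most changed members were sought among 10435 genes with a mean of at least 5 CPM, as the root-mean-square difference of log2(CPM + 1) after subtraction of the control mean. MXD4 was nearest to ORMDL3 (0.06) and PPP1R12C (0.07), whose changes with lurbinectedin were 1.15 and 1.09 and with the combination 1.12 and 1.2003. MXD3 was nearest to CREG1 (0.13) and CRTC2 (0.14), with 1.05 and 0.94 under lurbinectedin. MGA was nearest to NSUN6 (0.07) and RABEP1 (0.08), which stood at -1.31 and -1.23 with lurbinectedin and at -1.34 and -1.12 with the combination. These are descriptions of likeness over the same libraries from which the 3 members were ranked.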
